A study of Homo sapiens with 8 samples.

Results

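The genes described here encode the DEAD and DEAH box RNA helicases, taken as every gene symbol in the deposited table that starts with DDX or DHX and a digit, without 3 symbols that the rule left out. The rule found 52 helicase genes among 24721 gene symbols, carried by 55 of 25918 gene models. DDX11 was the helicase with several gene models, and the one with the highest mean rank stood for it.

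DEAD and DEAH box proteins are named after the amino acids of a conserved motif that binds and hydrolyses ATP. They use ATP to separate short RNA duplexes or to strip proteins from RNA, and one or another of them acts at nearly every step of an RNA's life, from splicing and ribosome assembly to export, translation and decay. N6-methyladenosine (m6A) is an internal mark of mRNA that is written mostly near stop codons and in long internal exons, most often at an adenosine in a GGAC or GGACT context.

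All samples came from cells labelled HepG2, an established human hepatocarcinoma line, and the 4 groups differed in what the cells had received. The first had UV irradiation at 0.04 J per square centimetre and 4 h of recovery, and the next had heat shock at 43 °C for 30 min. The remaining cultures were kept overnight with hepatocyte growth factor, also called scatter factor (HGF, 10 ng/ml), or with interferon gamma (IFNg, 200 ng/ml). Each treatment had 1 library of RNA fragments pulled down with an anti-m6A antibody (IP) and 1 input library, from polyA-selected RNA in fragments of about 100 nt. There was no untreated sample among the 8 libraries and no replicate of any group. Every value below therefore describes single libraries, no test could be run and no p-value is given.

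Expression was deposited as a rank within each treatment, given here as a percentile from 0 to 100 over all gene models, so that a value of 99 means a place among the 1% most highly ranked. It is neither an amount nor a fold. Tied lowest ranks formed a floor at percentile 45.5 with UV, 32.7 with heat shock, 20.4 with HGF and 18.4 with IFNg. The depth of the libraries is unknown. The hepatocyte markers went against the label. Of 17 hepatocyte markers found, 1 passed a percentile of 60 in any treatment, the transthyretin gene TTR, at 76.1 with UV, 71.5 with heat shock, 43.0 with HGF and 42.0 with IFNg. Albumin (ALB) stood at 45.5, 57.6, 24.9 and 22.3 in the same order, and alpha-fetoprotein (AFP) was at the floor in every treatment except IFNg, where it stood at 22.4. APOA2, FGB and AMBP were at the floor in all 4. Of blood cell markers 1 of 6 passed, of fibroblast and endothelial markers 2 of 6, and of germ cell markers 2 of 10. COL1A1, the most highly ranked of these, stood at 64.7 with UV, 60.7 with heat shock, 83.6 with HGF and 80.9 with IFNg. The part of cell identity in the results below was not tested.

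The sequences around m6A sites are given first, because they carry the mark itself. Peaks of the same gene model within 100 nt of each other were joined into 1 site. Of 102 helicase sites, 13 had a listed peak in all 4 treatments, 1 site in each of 13 genes, and 11 of these lay on a helicase transcript that could be matched to GENCODE 29. A GGAC was found within 100 nt of 8 of the 11 (72.7%), and a GGACT within 100 nt of 3 (27.3%). At the sites of all genes listed in all 4 treatments, on matched transcripts, the shares were 83.9% and 46.2%. The 8 helicase stretches are printed below from the GENCODE 29 transcripts, on the strand of the mRNA. The motif chosen for each site is in capitals, with 10 bases on either side. The DDX42 stretch holds a further GGAC in lower case.

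DHX32: tgtgttacttGGACTtcttaaagat
DHX8: gccagggcttGGACTtatcgatgac
DHX34: tggagaaatgGGACTggaattgtcc
DDX56: cacccttcgtGGACaggcgaggct
DDX23: ccgccggatgGGACctcctttggc
DDX42: tggacaaggtGGACagcaagacag
DDX6: tggggaaaggGGACaaggaaggaa
DHX38: ggaggtggctGGACccatcgcatc

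On GRCh38 these stretches are chr10:125859843-125859867 on the minus strand (DHX32), chr17:43523885-43523909 on the plus strand (DHX8) and chr19:47353104-47353128 on the plus strand (DHX34). DDX56 is at chr7:44565930-44565953, minus strand, and DDX23 at chr12:48830110-48830133, minus strand. DDX42 is at chr17:63818307-63818330, plus strand, and DDX6 at chr11:118751820-118751843, minus strand. DHX38 is at chr16:72112738-72112761, plus strand. The deposited labels put the sites of DHX32 and DHX34 in coding sequence and the other 6 around the stop codon or downstream of it. The DDX56 site is labelled as around the stop codon, but on the matched transcript it lay 608 nt downstream of the GENCODE stop codon. The motif lay 2 nt from the site in DDX56 and 3 nt from it in DHX32. It lay 22 nt away in DDX23 and in DDX42, and 45 to 63 nt away in DDX6, DHX8, DHX38 and DHX34. Where a GGACT lay within 100 nt, the nearest GGACT was taken, even if a GGAC without the T was closer. The windows of DDX3X, DDX54 and DHX36 held no GGAC, which says only that these letters are not within 100 nt of the middle of the site. Windows of 201 nt were then searched at all 87 helicase sites on matched transcripts, on the mRNA strand, where a GGACT also counts as a GGAC. GGAC was in 67.8% of the helicase windows (exact 95% interval 56.9 to 77.4%, counting error only), against 76.5% of the windows at the sites of all genes. GGACT was in 31% of the helicase windows (21.5 to 41.9%), against 36.1% at the sites of all genes. Windows of helicase transcripts at least 300 nt from any listed peak held GGAC in 47.1% and GGACT in 13.4% of 461 windows. The same windows over all matched transcripts held them in 46.8% and 15.8%. The reverse complement AGTCC was in 9.20% of the helicase site windows (4.05 to 17.3%), against 15.8% of the helicase windows away from peaks. Helicase sites thus had more of both motifs than other stretches of the same transcripts, on the mRNA strand. The windows share transcripts and are not independent, so the shares carry no test.

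The helicases were highly ranked in every treatment. Their median percentile was 89.7 with UV, 90.3 with heat shock, 86.8 with HGF and 87.4 with IFNg. Of the 52 helicases, 26 stood at percentile 90 or above with UV, 26 with heat shock, 21 with HGF and 24 with IFNg. That is 50%, 50%, 40.4% and 46.2% of them, against 10.0% of all gene models, a share that the ranking itself sets. In at least 1 treatment 46 helicases reached percentile 60. The other 6 were DHX40P, a pseudogene copy of DHX40, DDX26B, and the germ cell helicases DDX43, DDX53, DDX4 and DDX25.

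**Figure D1:**
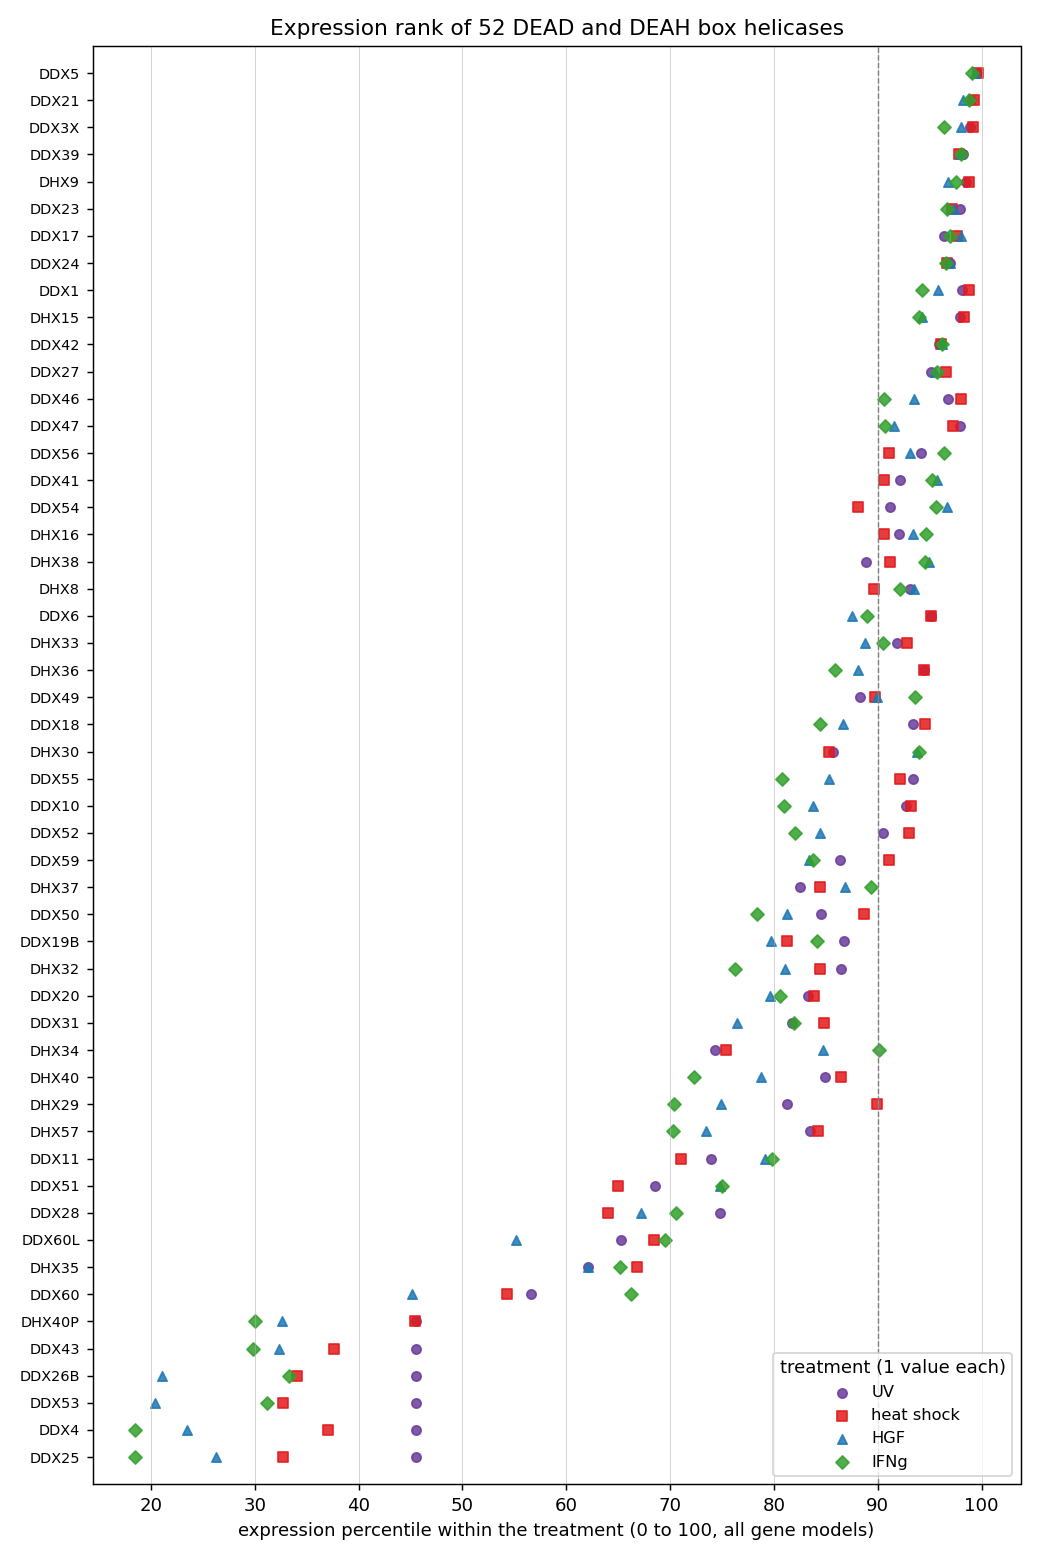
Expression percentile (x axis, 0 to 100 among 25918 gene models) of each of the 52 helicases, ordered from top to bottom by mean percentile, with 1 point per treatment. The dashed line marks percentile 90; DDX5 to DHX15 at the top sit close together in all 4 treatments, and the 6 helicases at the bottom share the UV floor of 45.5.

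The plot of percentiles shows the treatments close together at the top and spread in the middle. At the top stood DDX5, a helicase of splicing and transcription, at percentile 99.6 with UV, 99.7 with heat shock, 99.4 with HGF and 99.1 with IFNg, which are ranks 108, 83, 167 and 229 of 25918. DDX21, a nucleolar helicase of ribosomal RNA processing, stood at 98.9, 99.2, 98.2 and 98.7 in the same order. DDX3X, which helps ribosomes start on structured mRNAs, stood at 98.9, 99.1, 98.0 and 96.4. For DDX3X the IFNg library was the lowest, by less than 3 points from the highest.

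The mRNA export helicase DDX39A, deposited under the older symbol DDX39, stood at 98.2, 97.8, 97.9 and 98.1. DHX9, also called RNA helicase A, which unwinds double-stranded RNA, stood at 98.5, 98.8, 96.8 and 97.6. Both stayed within 2 percentile points over all treatments. DDX23, the helicase that exchanges small nuclear RNAs at the start site of an intron, stood at 97.9, 97.1, 97.3 and 96.7. DDX17, the close relative of DDX5, stood at 96.3, 97.6, 98.0 and 96.9. DDX24, of ribosome biogenesis, stood at 97.0, 96.7, 96.9 and 96.6. These 3 kept no common order of treatments.

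DDX1, a subunit of the tRNA ligase complex, stood at 98.1, 98.8, 95.8 and 94.2, and DHX15, which takes spliceosomes apart, at 97.9, 98.3, 94.3 and 94.0. In both, the UV and heat shock libraries were above the HGF and IFNg libraries. DDX46, which acts when the branch point is recognised, stood further down at 96.8, 98.0, 93.5 and 90.6, with the same separation of the pairs.

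At the other end, DDX4, the germ line helicase also known as Vasa, stood at 45.5 with UV and 18.4 with IFNg, both the floor, with 37.1 with heat shock and 23.5 with HGF. DDX25, a testis helicase, stood at the floor with UV, heat shock and IFNg and at 26.2 with HGF. DDX53 was at the floor with UV, heat shock and HGF and at 31.2 with IFNg. DDX43 stood at 45.5, 37.6, 32.4 and 29.8, and DDX26B at 45.5, 34.1, 21.1 and 33.3. None of the 4 germ cell helicases passed percentile 60 in any treatment, and none had a listed peak.

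By role, the 11 spliceosomal helicases had a median mean percentile of 94.7, the 8 of translation, export and decay 91.2, and the 16 of ribosome biogenesis 90.1. DDX1 and DDX20, a subunit of the complex that assembles small nuclear ribonucleoproteins, had a median of 89.3. The 2 mitochondrial helicases had a median of 79.4, with mean percentiles of 89.7 in DHX30 and 69.2 in DDX28. DHX30 stood at 85.7, 85.3, 93.8 and 94.0, and DDX28, of mitochondrial ribosome assembly, at 74.9, 64.0, 67.2 and 70.5. The spliceosomal helicase DDX39B appears in the table under its older symbol BAT1, outside the rule. DHX35, at 62.1 with UV, 66.8 with heat shock, 62.1 with HGF and 65.2 with IFNg, was the least highly ranked spliceosomal helicase.

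Ranks of the 46 helicases past percentile 60 varied little between treatments. The range over the 4 treatments had a median of 7.15 points, against 12.9 points over all 12624 gene models that passed, and it was under 5 points in 17 helicases, against 15.0% of all gene models that passed, and 10 points or more in 14, against 63.1%. The range used percentiles as deposited, so the unequal floors can widen it for gene models that are low in some treatments. Highly ranked genes also have less room to move on a percentile scale. The part of either in the narrower range was not tested. A rule of size was used in place of a test, and a gene was called apart when 1 treatment lay at least 10 points beyond all of the other 3. Among all gene models that passed, 19.4% were apart in some treatment, and 1.39% were apart below the others with HGF. Among the 46 helicases the 1 apart was DDX60L, lower with HGF, at 55.2 there and at 65.3 with UV, 68.5 with heat shock and 69.5 with IFNg. This call was lost after the correction for GC content described further on, where DDX60L was apart as higher with IFNg instead, at -0.58 corrected points there and at -13.7 with UV, -13.4 with heat shock and -17.1 with HGF.

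DDX60L and its neighbour DDX60 are known as genes induced by interferons. DDX60 stood at 66.2 with IFNg, against 56.6 with UV, 54.3 with heat shock and 45.1 with HGF. DDX60 passed percentile 60 through its IFNg value alone, so that its highest value lies with IFNg follows from the filter. The gap to the next treatment was 9.62 points, under the 10 points required. The IFNg value of DDX60L was also its highest, but by about 1 point over heat shock. In these bulk samples, fewer cells of a kind and less RNA per cell cannot be told apart. At 5 points instead of 10, helicases apart were DDX31 (lower with HGF), DHX34 (higher with IFNg), DHX40 (lower with IFNg), DHX29 (higher with heat shock), DDX60L and DDX60. These 6 compare with 50.9% of all gene models that passed.

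The treatments fell into pairs. Both UV and heat shock percentiles were above both HGF and IFNg percentiles in 22 of the 46 helicases, against 36.3% of all gene models that passed. They were below both in 11 helicases, against 30.9%, and the pairs overlapped in 13. DHX29, which helps ribosomes scan structured leaders, had the largest mean difference, with 81.3 with UV, 89.9 with heat shock, 74.9 with HGF and 70.4 with IFNg. DHX57 stood at 83.4, 84.3, 73.5 and 70.3 in the same order. DDX10, of ribosome biogenesis, stood at 92.7, 93.2, 83.7 and 81.0.

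In the other direction, DHX34, a factor of nonsense-mediated decay, stood at 74.3 with UV and 75.4 with heat shock, below 84.7 with HGF and 90.1 with IFNg. DDX51, of ribosome biogenesis, stood at 68.5, 65.0, 74.8 and 75, and DDX54, a nucleolar helicase, at 91.2, 88.1, 96.6 and 95.6. In these 3 and in DHX30, both UV and heat shock values lay under both HGF and IFNg values.

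The direction of the pair difference went with the GC content of the mRNA, for which the longest GENCODE 29 transcript was used. Of 23 helicases with a GC content under 45%, 20 had both UV and heat shock above, and 0 below, against 70.7% above and 3.28% below among all gene models of that class. Of 13 with 55% or more, 0 were above and 10 below, against 3.31% above and 71.4% below. In the 10 helicases between these limits, 2 were above and 1 below, against 30.6% and 28.3%. The rank correlation between GC content and the pair difference was -0.74 over the 46 helicases and -0.72 over all gene models that passed with a GC value. These points share the same 4 treatments and their libraries, so no p-value is given. Under 45% and from 55% on, the helicases thus split in the same direction as all gene models of the class. The shares differed in size, with 87.0% above against 70.7% under 45%, and 76.9% below against 71.4% from 55% on. Whether GC content has a part in the split was not tested. After subtraction of the median of genes in the same GC bin, 16 helicases were above and 12 below, against 28.9% and 25.9% of all gene models. The similar totals held different members. Under 45% GC, 3 of 23 helicases were then above and 10 below, against 885 and 1353 of 4241 gene models. From 55% on, 9 of 13 were above and 0 below, against 1321 and 591 of 3290. The rank correlation of GC content with the corrected pair difference was 0.67 over the helicases and 0.18 over all gene models. The subtraction turned the pair order round in several top-ranked helicases, among them DDX5, DDX21, DDX3X and DDX46. The corrected pair difference was -5.46 points in DDX5 and -6.73 in DDX21. Their uncorrected percentiles ranged over only 0.563 and 1.02 points, so the subtracted medians mainly set the corrected order there. The part of this in the correlation of 0.67 was not tested.

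**Figure D2:**
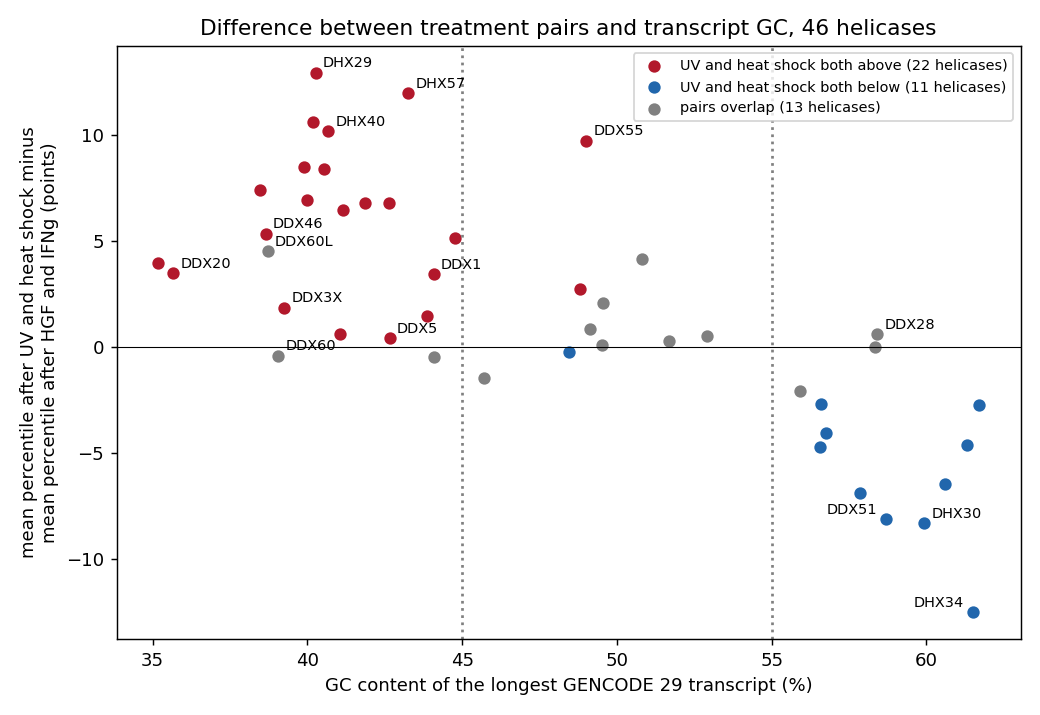
Mean percentile with UV and heat shock minus mean percentile with HGF and IFNg (y axis, points) against transcript GC content (x axis, %) for the 46 helicases past percentile 60, coloured by whether the pairs separate. Helicases with UV and heat shock above lie at the left under 45% GC in 20 of 22 cases, and those with UV and heat shock below lie at the right from 55% on in 10 of 11.

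By role, UV and heat shock were both above in 8 of 16 helicases of ribosome biogenesis and below in 4, where all gene models that passed had 36.3% above and 30.9% below. The groups are small, and no difference between roles was tested. They were above in 5 of 8 helicases of translation, export and decay and below in 1, DHX34. They were above in 3 of 11 spliceosomal helicases, DDX5, DHX15 and DDX46, and below in 4, DDX41, DDX42, DHX16 and DHX38. The median GC content was 42.1% in the translation, export and decay group, 48.4% in the spliceosomal group and 49.3% in the ribosome biogenesis group. DDX42, which is associated with the branch-point complex, was the steadiest of all, at 95.9, 96.1, 96.2 and 96.2. The order of its libraries rests on 0.351 points.

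A second list held 58 names of other RNA helicases and of proteins that work with helicases. It covered 55 genes in the table, and all 55 passed percentile 60. UV and heat shock were both above in 30 of them, against 36.3% of all gene models that passed, and below in 11, against 30.9%. Those apart by 10 points, against 19.4% of all gene models that passed, were MOV10 and PRIC285, both higher with IFNg. PRIC285 was also apart as lower with heat shock. MOV10, a helicase that binds the regions downstream of stop codons, stood at 91.7 with IFNg, against 64.9 with UV, 68.7 with heat shock and 81.4 with HGF. PRIC285, the older symbol of HELZ2, stood at 88.4 with IFNg, against 62.0, 42.9 and 65.9.

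Listed m6A peaks were common in helicase mRNAs. With UV 36 of the 52 helicases had at least 1 peak, with heat shock 30, with HGF 30 and with IFNg 27. These are 69.2%, 57.7%, 57.7% and 51.9% of the helicases, against 27.7%, 21.8%, 21.3% and 13.7% of all gene models. The helicases had 71 peaks with UV, 51 with heat shock, 41 with HGF and 38 with IFNg, against 13307, 9803, 9111 and 5280 in the whole table. Peaks are listed more often in highly ranked genes, so the helicases were also compared at percentile 90 or above. There 23 of 26 had a peak with UV (88.5%, exact 95% interval 69.8 to 97.6%), against 67.9% of all gene models of that rank. With heat shock it was 18 of 26 (69.2%, 48.2 to 85.7%), against 56.5%, and with HGF 15 of 21 (71.4%, 47.8 to 88.7%), against 49.1%. With IFNg it was 18 of 24 (75%, 53.3 to 90.2%), against 38.2%.

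**Figure D3:**
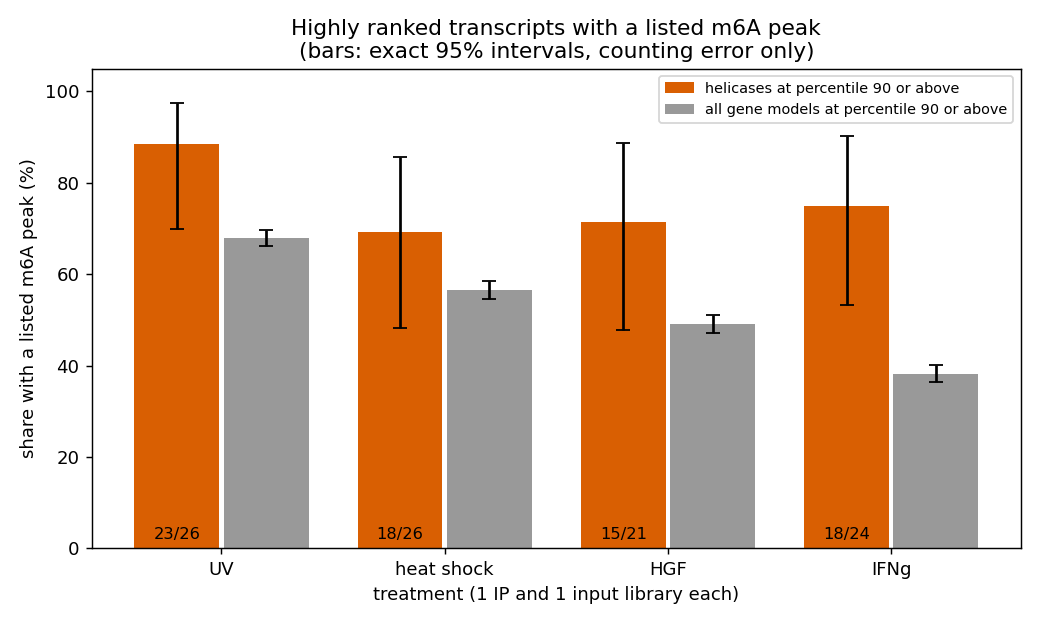
Share (y axis, %) of helicases at percentile 90 or above (left bars, with counts) and of all gene models at percentile 90 or above (right bars) with a listed m6A peak in each treatment. Bars carry exact 95% intervals for counting error only; the share of all gene models lies under the interval of the helicases with UV and with IFNg and inside it with heat shock and with HGF.

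The helicase share was the higher one in each treatment. The share of all gene models lay under the helicase interval with UV and with IFNg, and inside it with heat shock and with HGF. Restricted to coding gene models the shares of all genes were 70.7%, 58.5%, 50.2% and 39.3%. The coding share lay inside the helicase interval with UV, heat shock and HGF, and under it with IFNg alone. Helicase transcripts with a mean percentile of 90 or more were longer than coding transcripts of that rank, with median lengths of 4358.5 and 3155 nt, and the part of length in the shares was not tested.

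A peak in all 4 treatments was listed for 18 helicases, 34.6% of them, against 11.0% of all gene models. Among the 24 with a mean percentile of 90 or more it was 14, which is 58.3%, against 28.0% of all gene models of that rank. The 18 were the spliceosomal DDX5, DDX17, DDX23, DDX42, DHX8, DHX15 and DHX38, the ribosome biogenesis helicases DDX21, DDX54, DDX56 and DHX33, the translation and decay helicases DDX3X, DDX6, DHX34 and DHX36, both mitochondrial helicases, and DHX32. Another 12 had a peak in 3 treatments, 4 in 2 and 7 in 1. No peak was listed for 11, which were the 6 under percentile 60 together with DDX19B, DDX50, DHX35, DDX60 and DDX60L. The interferon-induced pair thus had no listed peak in any treatment, at percentiles between 45.1 and 69.5.

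Positions are counted in nt from the start of the deposited transcript. DDX17 carried the most peaks, 7 with UV, against 2 with heat shock, 2 with HGF and 1 with IFNg. Its sites ran from position 117 near the transcript start to position 4606 far downstream of the stop codon, and 4 of them were listed with UV alone, at 1644, 1889, 2255 and 4286. DDX21 had 4 peaks with UV, 3 with heat shock, 2 with HGF and 2 with IFNg. DHX15 and DDX23 each had 3 peaks with UV and 3 with heat shock, with fewer with HGF and IFNg. DHX38, which remodels the spliceosome between its reaction steps, had 3 with UV, 3 with heat shock, 1 with HGF and 1 with IFNg. DDX3X and DDX28 had 3 peaks with UV, DDX24 and DDX51 had 3 with heat shock, and DHX57 had 3 with UV and 3 with HGF. IFNg gave the most peaks in DDX42, DDX20 and DDX6, with 3 in each, and DDX1, DDX27 and DDX46 had peaks with IFNg alone.

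Several of the genes with peaks stood below the top of the ranking. DDX6 was at percentile 95.1 with UV, 95.2 with heat shock, 87.5 with HGF and 89.0 with IFNg, and DDX20 at 83.3, 83.9, 79.6 and 80.6. DHX38 was at 88.8, 91.2, 95 and 94.5, and DHX36 at 94.4, 94.4, 88.1 and 85.9. DHX38 had its fewest peaks in the libraries where it was most highly ranked. DHX32 was at 86.4, 84.4, 81.0 and 76.3 with 2 peaks in every treatment, DHX33 at 91.8, 92.9, 88.8 and 90.5 with 2, 1, 1 and 1, and DDX56 at 94.2, 91.1, 93.1 and 96.3 with 2, 2, 1 and 1.

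**Figure D4:**
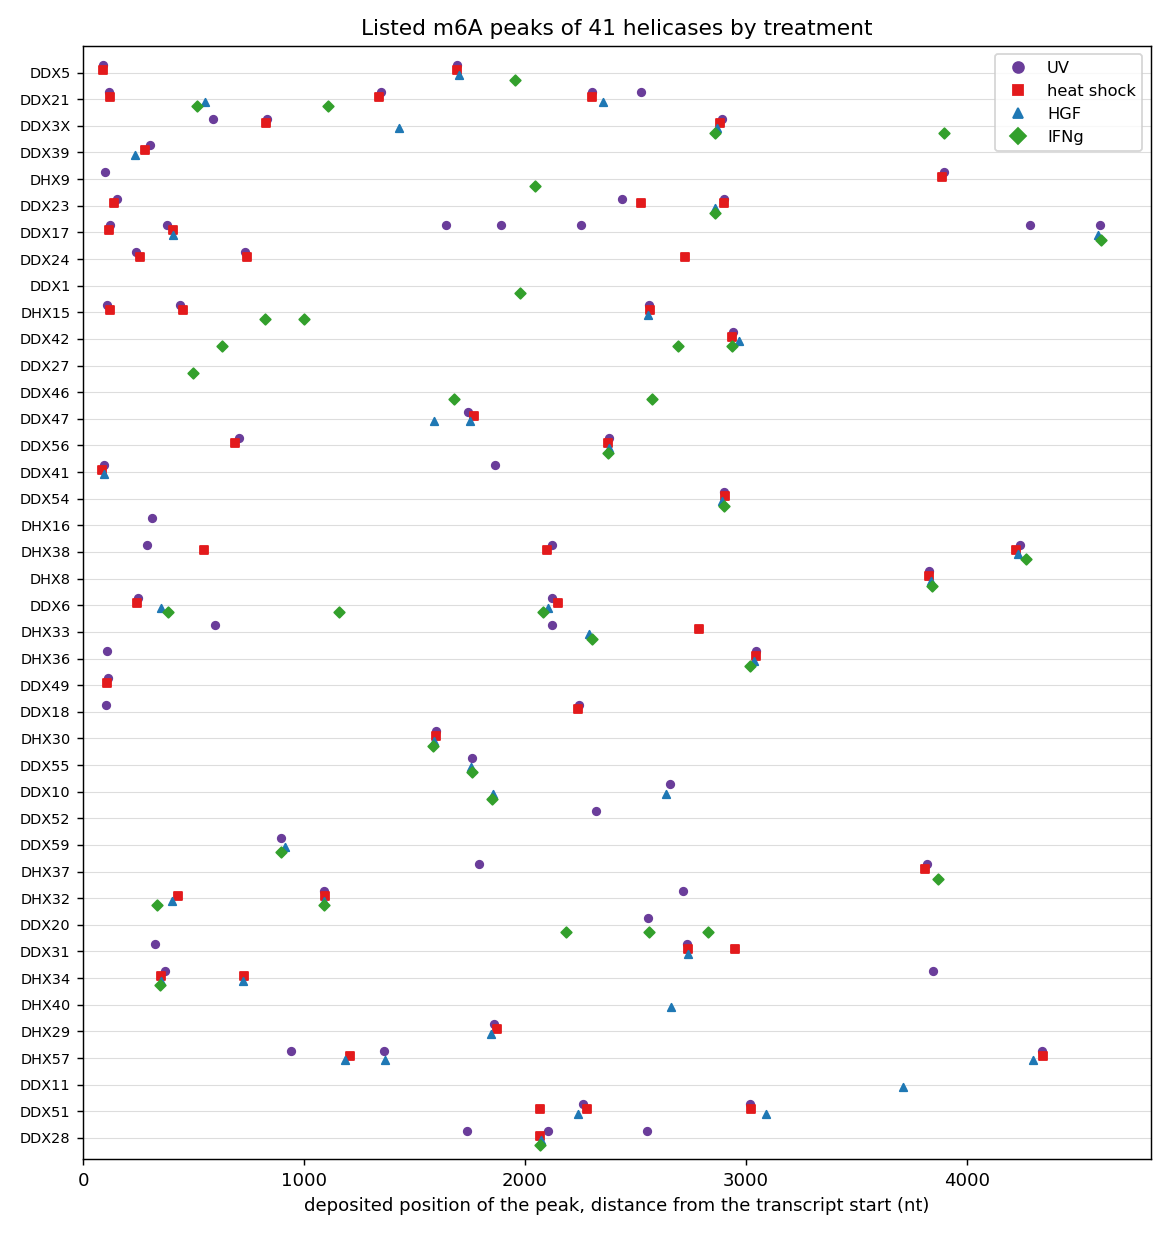
Deposited positions of the listed m6A peaks (x axis, nt from the transcript start) in the 41 helicases with a peak, ordered by mean percentile, with 1 symbol and height per treatment. Sites within the first 151 nt carry UV or heat shock symbols alone in all helicases except DDX41, which also has an HGF symbol, and IFNg symbols stand alone at 15 sites.

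Peaks at the transcript start were listed mostly in the UV and heat shock libraries. The label of the transcript start was given to 10 helicase sites, between positions 85 and 151. All 10 were listed with UV, 7 also with heat shock, 1 with HGF (DDX41) and 0 with IFNg. Of helicase peaks these were 14.1% with UV (exact 95% interval 6.97 to 24.4%), 13.7% with heat shock (5.70 to 26.3%), 2.44% with HGF (0.0617 to 12.9%) and 0% with IFNg (up to 9.25%). Over all gene models the shares were 9.49%, 8.47%, 3.85% and 1.20%, each inside the exact interval of the helicases. The helicases concerned were DDX5, DDX17, DDX18, DDX21, DDX23, DDX41, DDX49, DHX9, DHX15 and DHX36. In DHX15 the start site had scores of 5.01 with UV and 5.40 with heat shock, and in DDX5 of 4.38 and 4.00. The score is the authors' own enrichment score, listed from 2 upwards.

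Peaks around the stop codon made up 29.6% of helicase peaks with UV, 29.4% with heat shock, 39.0% with HGF and 26.3% with IFNg. Over all gene models the shares were 27.2%, 27.4%, 29.4% and 29%, each inside the exact interval of the helicases. Helicase peaks with this label on matched transcripts lay a median of 29 nt downstream of the GENCODE stop codon, and 93.2% of the 59 lay within 400 nt of it. Over all gene models the median was 24 nt. Coding sequence held 35.2%, 33.3%, 36.6% and 52.6% of helicase peaks, against 39.0%, 40.8%, 44.4% and 47.8% of all peaks.

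Within coding sequence, helicase peaks lay in shorter exons than those of other genes. The median exon length was 703 nt with UV, 703 nt with heat shock, 707 nt with HGF and 293.5 nt with IFNg. Over all gene models it was 1297, 1393, 1457 and 1327 nt. Exons under 200 nt held 16.0% of the 25 helicase coding peaks with UV, 17.6% of 17 with heat shock, 13.3% of 15 with HGF and 45% of 20 with IFNg. The shares over all gene models were 3.49%, 2.81%, 5.57% and 13.7%. The exon lengths that helicase genes have without regard to peaks were not compared.

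Counted as sites, the 102 helicase sites had 13 in all 4 treatments, 17 in 3, 26 in 2 and 46 in 1. The share in all 4 was 12.7% (exact 95% interval 6.96 to 20.8%), against 16.5% of the 17764 sites of all gene models. The shares in 3, 2 and 1 were 16.7%, 25.5% and 45.1%, against 17.4%, 25.9% and 40.3% of all sites. Sites in 1 treatment were 22 with UV, 5 with heat shock, 4 with HGF and 15 with IFNg. These are 21.6%, 4.90%, 3.92% and 14.7% of the helicase sites, against 21%, 5.07%, 9% and 5.22% of all sites. Of the 18 helicases with a peak in every treatment, 13 had a site shared by all, and DDX5, DDX17, DDX21, DHX15 and DHX33 did not. In DHX33 the sites were at 595 and 2123 with UV, at 2789 with heat shock, and at 2290 to 2305 with HGF and IFNg.

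The IFNg library had sites that no other treatment listed. These were 15 of the 102 helicase sites (14.7%, 8.47 to 23.1%). In genes with a mean percentile of 90 or more they were 13 of 67, 19.4% (10.8 to 30.9%), against 9.10%. Of the 15 sites, 12 were labelled as coding sequence (80%, exact 95% interval 51.9 to 95.7%), against 62.6% of the IFNg-alone sites of all genes. Exons under 200 nt held 9 of the 15 (60%, 32.3 to 83.7%), against 36.4%. Both shares of all genes lay inside the helicase intervals. They were in DDX1, DDX3X, DDX5, DDX6, DDX20, DDX21, DDX27, DDX42, DDX46, DHX9 and DHX15. DDX46, which like DDX3X has been reported to bind the m6A demethylase ALKBH5, had both its listed sites here, at positions 1679 and 2575, in exons of 79 and 150 nt.

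The scores of these 15 sites were low, with a median of 2.57 and a range of 2.03 to 3.73, against a median of 2.53 at the IFNg-alone sites of all genes, close to the lowest score of 2 that the table lists. With peaks of score 2.5 or more, 8 of 91 helicase sites were listed with IFNg alone (8.79%, 3.87 to 16.6%), against 3.73% of all sites. On matched transcripts, 4 of 12 such helicase windows held GGAC, 33.3% (9.92 to 65.1%), against 54.9% at the IFNg-alone sites of all genes. Helicase sites in 2 or 3 treatments held it in 31 of 38 windows, 81.6% (65.7 to 92.3%). The 12 helicase windows held GGACT once, in DDX5.

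At the 13 shared sites the 4 deposited positions lay a median of 28 nt apart, against 26 nt over the 2925 shared sites of all genes. Labels put 9 of the 13 around the stop codon or downstream of it and 4 in coding sequence, in DDX28, DHX30, DHX32 and DHX34. The printed GGACT of DHX32 lay at such a coding site, at positions 1089 to 1094 in an exon of 373 nt. Its scores were 6.63 with UV, 4.44 with heat shock, 5.74 with HGF and 6.37 with IFNg.

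UV gave the highest score at 11 of the 13 and IFNg the lowest at 10, against 63.5% and 63.5% of the shared sites of all genes. DDX3X, at positions 2861 to 2890 beside the stop codon, scored 7.14 with UV, 6.17 with heat shock, 4.20 with HGF and 2.93 with IFNg. DHX36, which unwinds G-quadruplexes, scored 7.35, 5.19, 5.80 and 3.76 at its stop codon. DDX6, which represses translation in processing bodies, scored 6.22, 5.18, 3.85 and 2.85. These sites kept UV at the top and IFNg at the bottom.

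DDX42 scored 7.5 with UV, 6.37 with heat shock, 5.72 with HGF and 4.37 with IFNg, and DDX23 scored 6.84, 5.12, 5.79 and 4.25. DDX56, of ribosome biogenesis, scored 6.92, 4.77, 5.27 and 3.82. DHX30 scored 6.28, 4.66, 4.53 and 3.26. DHX34 scored 5.64, 4.25, 2.84 and 2.39, and DHX38 scored 6.31, 5.44, 2.78 and 2.40. In the last 2 the HGF and IFNg scores lay together, well under the UV and heat shock scores.

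DDX54 and DDX28 went against this order. DDX54, at positions 2890 to 2904, scored 3.45 with UV, 2.28 with heat shock, 3.61 with HGF and 4.55 with IFNg. DDX28 scored 2.51, 3.71, 3.15 and 3.18, with UV the lowest.

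**Figure D5:**
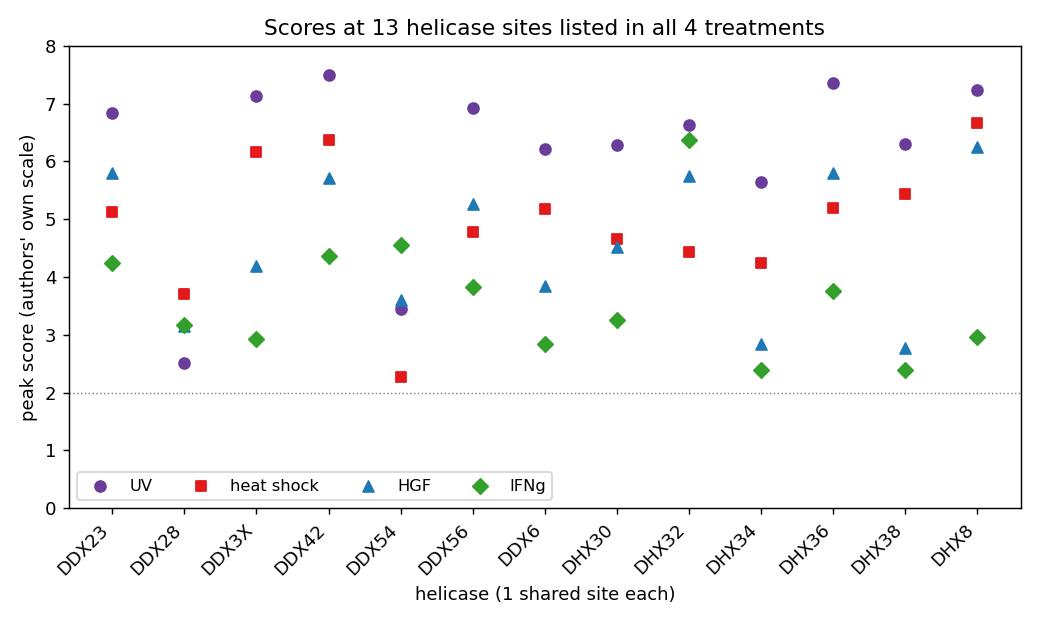
Peak score on the authors' own scale (y axis) at the 13 helicase sites listed in all 4 treatments (x axis, 1 site per gene), with 1 point per treatment and a dotted line at the lowest listed score of 2. UV is the top symbol at 11 sites and IFNg the bottom one at 10; DDX54, DDX28 and DHX32 depart from that order.

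Because scores differ in level between treatments, each was also ranked among the 2925 shared sites, and a site was called apart at 25 rank points beyond all other treatments. Helicase sites apart were DDX54 (higher with IFNg), DHX8 (lower with IFNg) and DHX32 (lower with heat shock). Over all shared sites, 33.9% were apart in some treatment, 7.62% were higher with IFNg, 7.90% lower with IFNg and 2.91% lower with heat shock. On this scale of 0 to 100, DDX54 stood at 11.5 with UV, 2.5 with heat shock, 32.1 with HGF and 85.9 with IFNg. DHX8, which releases spliced mRNA from the spliceosome, scored 7.24 with UV, 6.67 with heat shock, 6.25 with HGF and 2.96 with IFNg.

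Expression percentiles can be set beside these scores. The percentile of DDX54 was 91.2 with UV, 88.1 with heat shock, 96.6 with HGF and 95.6 with IFNg, and that of DHX8 was 93.1, 89.6, 93.5 and 92.1. DHX34 was most highly ranked with IFNg, where its shared site had its lowest score. DDX5, at percentile 99.1 or above in every treatment, had 2 peaks with UV, 2 with heat shock, 1 with HGF and 1 with IFNg, and its IFNg peak, at position 1953 with a score of 2.42, was listed in no other treatment.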

How the data were processed

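The members, roles and lists were chosen with earlier results of these data known. The authors deposited 1 table of 25918 gene models. Its expression values are quantiles, a fraction from 0 to 1 per the file headers, written here as percentiles; whether the IP or the input library gave them is not stated. The authors also deposited peak counts, and for each peak its transcript position, exon number and length, a transcript segment and the authors' own enrichment score, whose formula is not stated. Aligner, peak caller, genome build and depth are not given in the sources used here. No deposited value has a replicate.

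Where a symbol had several models, the one with the highest mean over treatments was used. For comparisons other than the range over treatments, values under the highest floor (UV) were raised to it. Gene models that reached percentile 60 somewhere were kept. The design assumed no test, and none was run; names followed a rule of highest and lowest percentile, apartness, 3 or more peaks, or a peak in every treatment. GC content came from the longest GENCODE 29 transcript of the symbol or of a synonym that no other gene shares, and covered 88.1% of gene models past the filter; the correction subtracted the median of 40 GC bins. Transcripts were matched to GENCODE 29 by exon number, exon length and span, for 33 of 41 helicases and 75.0% of 7952 gene models with a peak. Intervals are exact Clopper-Pearson 95% intervals for counting error only. Counting rules were tested on simulated data. Scripts ran in Python 3.11.15 with matplotlib 3.10.9, SciPy 1.17.1, NumPy 2.4.6 and pandas 2.3.3.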

Additional observations from a re-analysis of the deposited data

How the results depend on the processing

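Of 66 recomputed values, 48 stayed within 1.5 times the count, or within the interval of the median or share, and 18 moved. The 48 include the totals of helicases with separated pairs after GC correction, although members changed sides there. The median percentile re-ranked among gene models above every floor was 84.1 with UV, 82.4 with heat shock and 77.2 with HGF, since low gene models leave the ranking. The count of helicases apart in rank, 1 as reported, was 6 at 5 points, against 50.9% of all gene models that passed. It was 0 at 15 points, against 7.54%, and 0 on a 2-fold scale of rank from the top, against 6.36%. With a filter at percentile 75 it was 0, against 14.7% of all gene models past that filter. After GC correction it was 2, against 12.5% of all gene models with a GC value. These 2 were DDX60L, no longer lower with HGF but higher with IFNg, and DDX60, higher with IFNg, the treatment through which alone it passed the filter. With peaks of score 4 or more, 19 helicases had a peak with heat shock, 12 with HGF and 5 with IFNg (36.5%, 23.1% and 9.62%, against 12.1%, 9.09% and 3.58% of all gene models). With score 3 or more 14 had one with IFNg (26.9%, against 8.26%). With score 3 or more, helicase sites numbered 6 in all 4 treatments, 9 in 3, 25 in 2 and 30 in 1. The coding share of helicase peaks was then 29%, against 38.3% as reported, and the cause was not tested. The same shares over all gene models at that score were not computed, so whether these changes are particular to helicases is unknown. IFNg-alone sites numbered 8 of 91 at score 2.5 or more, a setting chosen after seeing the data. Shared sites apart in score rank numbered 7 of 13 at 10 points, against 78.9% of all shared sites, and 3 of 13 at 25 points, against 33.9%. No paired analysis was possible because each group holds 1 library and no test was run. Unknown depth limits every count of peaks: a peak that is not listed may be one that was not detectable.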
